A study of Homo sapiens with 6 samples.

Results

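The leukotriene receptor group comprised 7 G protein-coupled receptors (GPCRs), CYSLTR1, CYSLTR2, GPR17, OXGR1, P2RY12, LTB4R and LTB4R2, and was represented by 7 of the 18607 rows used from a gene expression array. The rows were taken by name, as those whose deposited annotation named no gene outside these receptors. CYSLTR1, CYSLTR2, GPR17, OXGR1 and P2RY12 each had 1 row of their own. The other 2 rows each named both LTB4R and LTB4R2, so the 2 leukotriene B4 receptors could not be read separately. RNA came from L1236, an established line of the malignant cell of Hodgkin lymphoma, which derives from B cells and is a small minority of the tumour. The 6 arrays held 1 sample each of cells left untreated, given methanol at 0.1% as vehicle, or given leukotriene D4 (LTD4) at 100 nM dissolved in methanol, at 1 h and at 8 h. Methanol and LTD4 cells were resuspended in serum-free medium, and the labels do not say whether the untreated cells were too. No group had a replicate, so no difference between 2 arrays has a test. These were bulk samples, in which fewer expressing cells and less RNA per cell cannot be told apart.

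Cysteinyl leukotrienes are lipid mediators made from arachidonic acid by 5-lipoxygenase and leukotriene C4 synthase, best known for constricting airways and drawing in eosinophils. LTD4 binds CYSLTR1, the receptor with the higher affinity for it, which couples mainly to Gq and calcium release, and CYSLTR2, which binds leukotrienes C4 and D4 about alike. GPR17 and P2RY12 are relatives in the purinergic branch that have been reported to respond to or modulate cysteinyl leukotriene signals, P2RY12 being the platelet ADP receptor. OXGR1, the 2-oxoglutarate receptor, has been described as a receptor of leukotriene E4. LTB4R and LTB4R2 bind leukotriene B4, a chemoattractant of neutrophils. In leukocytes, IL-4 and IL-13 acting through the transcription factor STAT6 are known to raise CYSLTR1, and Hodgkin cells commonly carry active STAT6.

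The promoters of the 2 receptors measured above background are shown because both held the same palindrome. Each window is the 250 bases before the gene start in RefSeq, build GRCh38.p14, on the gene's strand from 5′ to 3′. CYSLTR1 lies on the minus strand with its window at chrX:78327612-78327861, and CYSLTR2 on the plus strand at chr13:48653679-48653928. Capitals mark a palindrome of TTC and GAA separated by 4 bases, a form bound by STAT proteins with the spacing that STAT6 favours.
CYSLTR1: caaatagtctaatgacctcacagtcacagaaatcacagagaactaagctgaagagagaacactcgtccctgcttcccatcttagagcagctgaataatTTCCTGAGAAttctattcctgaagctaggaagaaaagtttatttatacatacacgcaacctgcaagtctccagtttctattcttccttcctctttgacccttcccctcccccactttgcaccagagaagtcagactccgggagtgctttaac
CYSLTR2: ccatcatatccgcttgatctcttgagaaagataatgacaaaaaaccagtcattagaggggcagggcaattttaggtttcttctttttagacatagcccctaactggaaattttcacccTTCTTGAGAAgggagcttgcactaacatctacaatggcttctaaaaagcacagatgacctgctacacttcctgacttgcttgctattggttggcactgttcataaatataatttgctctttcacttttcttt
The match in CYSLTR1, TTCCTGAGAA, spanned bases 152 to 143 before the start, and that in CYSLTR2, TTCTTGAGAA, bases 132 to 123. Of 35116 promoter windows of this length, 5.38% held the palindrome, which reads alike on both strands. It was also found in 1 of the 2 P2RY12 windows, but not in those of GPR17, OXGR1, LTB4R and LTB4R2. Neither the EGR1 motif GCGNGGGCG, held by 8.41% of windows, nor the AP-1 motif TGANTCA, held by 6.57%, was found on either strand in any of the 8 windows of the 7 receptors. A TATA box, TATAAA, occurred on the opposite strand of the CYSLTR1 window and in both P2RY12 windows, and in 10.7% of all windows. A match is a run of letters and was not tested as a binding site.

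CYSLTR1 and CYSLTR2 were the 2 of 7 receptor rows above background, and both were so on all 6 arrays. A row was counted as above background on an array when its intensity reached 1263, the 95th percentile of 45 antigenomic control probesets, designed to lack a target in the human genome. By this limit 11.4% of all rows were above background on all 6 arrays. The CYSLTR1 intensity at 1 h was 2116 untreated, 1457 after methanol and 1605 after LTD4, and the 8 h arrays read 1499, 1551 and 1567 in that order. The untreated array at 1 h stood 0.40 on the log2 scale above the next highest, while the other 5 arrays lay within 0.14 of each other. The CYSLTR2 intensity was 4411, 3482 and 4223 on the 1 h arrays in the same order, and 3799, 4364 and 3657 on those of 8 h. Its arrays followed no order by agent, with untreated at 1 h and methanol at 8 h at the top and methanol at 1 h at the bottom. The intensities of different rows depend on their probes, so the greater values of CYSLTR2 do not show that it had more RNA than CYSLTR1. Against the control probesets, CYSLTR2 exceeded all 45 on every array. CYSLTR1 exceeded all 45 on the untreated and methanol arrays of 1 h and the LTD4 array of 8 h, and on the other 3 arrays 1 of the 45, or 2.22%, was at least as bright. With the highest antigenomic value of any array, 1668, as the limit, CYSLTR1 passed on 1 array, untreated at 1 h, and CYSLTR2 still on 6.

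The related receptors lay far below the limit on every array. GPR17, a receptor known from oligodendrocyte precursors, read 126, 205 and 146 on the untreated, methanol and LTD4 arrays of 1 h, and 91.5, 117 and 142 on those of 8 h. At most it reached 16.2% of the limit, and 37.8% to 42.2% of the antigenomic probesets were as bright or brighter. OXGR1 read 45.6, 58.6 and 62.7 on the 1 h arrays, then 56.5, 44.7 and 43.7. P2RY12 read 44.1, 57.9 and 49.4 on the 1 h arrays, then 27.6, 38.4 and 40.0 on those of 8 h, and was lower at 8 h under each agent. Both rows lay around the median antigenomic probeset of their arrays, which was between 40.7 and 59.8. OXGR1 stood at 0.75 to 1.39 times that median and P2RY12 at 0.64 to 1.19 times. The shared row that lists LTB4R2 first read 143, 187 and 158 on the 1 h arrays, then 117, 156 and 162. The one that lists LTB4R first read 167, 215 and 240, then 168, 233 and 201. In each shared row the untreated array was the lowest of its time. None of these 5 rows was detectable above background, which sets a limit on what these probes could show and does not show that the RNA was absent.

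**Figure D1:**
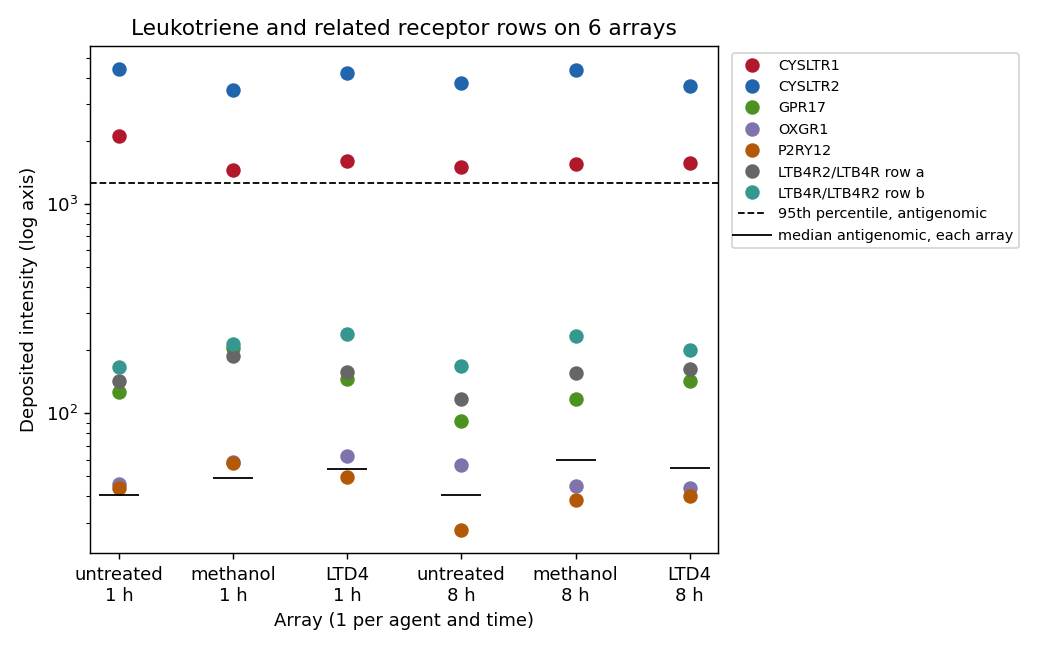
Deposited intensity of the 7 receptor rows on each of 6 arrays, on a log axis, 1 point per row and array, with no error bars because each group is 1 array. Row a lists LTB4R2 first and row b LTB4R first. CYSLTR1 and CYSLTR2 lie above the dashed background limit of 1263 on all 6 arrays, and the other 5 rows lie between 27.6 and 240.

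In the coordinates as deposited, with the genome build not given in the sources consulted, the CYSLTR1 row spans 77413617-77469743 on the minus strand of chromosome X with 29 probes and the CYSLTR2 row 48126097-48181499 on the plus strand of chromosome 13 with 27. GPR17 spans 128120095-128130225 on chromosome 2 with 31 probes and OXGR1 96435974-96444605 on chromosome 13 with 25. P2RY12 spans 152538066-152585234 on chromosome 3 with 29 probes, and lies within the row of MED12L, a Mediator subunit on the opposite strand. The shared rows of the leukotriene B4 receptors, at 23848001-23850805 and 23850545-23855992 on the plus strand of chromosome 14, overlap each other by 261 bases. The former also overlaps CIDEB, a gene of lipid droplets and apoptosis on the opposite strand, by 2495 bases. The intensities cannot separate LTB4R from LTB4R2.

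The cell label was checked with marker genes. Of 12 Hodgkin cell markers, 8 were above background on all 6 arrays, among them FCER2 (CD23) at 4632 to 6306, the transcription factor IRF4 at 4196 to 4991, the costimulatory ligand CD86 at 4022 to 5642 and FSCN1 at 2389.7 to 3081. TNFRSF8, which encodes CD30, lay below the limit at 496 to 872, as did FUT4, TRAF1 and CD70. Of the B cell markers reported here, MS4A1, CD79A, CD79B, POU2AF1, SPIB and BLK were below it on every array, and PAX5 was above it on 5 of 6. None of 8 T and NK cell markers and none of 8 myeloid and mast cell markers, the latter from cells that commonly carry CYSLTR1, reached it on any array. EGR1, an immediate early transcription factor, read 9692 on the LTD4 array of 1 h and 2882 on its methanol array, a log2 difference of 1.74, and was not called by the fit over both times (0.78, adjusted p = 1.00 by limma), though it was called after centring each array on its median over all rows (0.85, adjusted p = 1.32e-05) or over rows above background (0.77, adjusted p = 0.0495).

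The first comparison asked whether LTD4 changed the RNA of its own receptors. Neither CYSLTR1 nor CYSLTR2 passed any fold rule or test for a change with LTD4. At 1 h CYSLTR1 was 0.14 above methanol but 0.40 below untreated, and at 8 h it was 0.01 and 0.06 above, all as differences of log2(intensity + 16) between 2 single arrays. CYSLTR2 was 0.28 above methanol at 1 h and 0.06 below untreated, and at 8 h it was 0.25 below methanol and 0.05 below untreated. In rows above background the median of LTD4 minus methanol was 0.11 at 1 h and -0.10 at 8 h, so CYSLTR1 at 1 h lay near the shift shared by bright rows.

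Of the 7 receptor rows, 0 were at least 2-fold above both references of their time, methanol and untreated, or 2-fold below both. Over all 18607 rows, 0.0537% were above and 0.0161% below at 1 h, and 0.0107% and 0.00537% at 8 h. At 1.5-fold it was again 0 of 7 receptor rows, where 0.328% of all rows were above and 0.145% below at 1 h, and 0.124% and 0.0484% at 8 h. Against methanol alone 0 of 7 passed 1.5-fold, where 0.634% of all rows were above and 2.42% below at 1 h, and 0.306% and 0.575% at 8 h. At 2-fold these shares were 0.107% and 0.161%, then 0.0107% and 0.0215%. GPR17 differed from methanol by -0.45 at 1 h and 0.24 at 8 h, with its methanol array of 1 h the brightest of the 6. The remaining 4 rows lay between -0.22 and 0.15 of methanol at both times.

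An additive model of agent and time was fitted with limma to all rows over the 6 arrays, which tested LTD4 against methanol with both times averaged. At an adjusted p under 0.05 it called 0 of 7 receptor rows, with 0.0215% of all rows called. At an unadjusted p under 0.05 it was also 0 of 7, where 175 of all 18607 rows passed. CYSLTR1 differed by 0.08 with a standard error (SE) of 0.26 and a 95% interval of -0.43 to 0.58. CYSLTR2 differed by 0.01 (SE 0.21) with an interval of -0.40 to 0.42. The adjusted p of each of the 7 rows was 1.00. As deposited, the intervals admit a fall or a rise of up to about 0.4 to 0.6 log2 units. Changes of this size or smaller were not detectable in this fit. These intervals are unadjusted, so they do not give the size needed for a call. EGR1 at 0.78 (SE 0.25) was not called, and the GPCR row S1PR1 at 0.89 (SE 0.20) was, with an adjusted p of 0.0444 by limma. Quantile normalization gave narrower intervals, -0.16 to 0.34 for CYSLTR1 and -0.24 to 0.21 for CYSLTR2. The sign of the CYSLTR2 estimate turned to -0.01 after quantile normalization. Between the 2 times, the LTD4 effect on CYSLTR2 differed by -0.53 and that on CYSLTR1 by -0.12, differences that have no test because there are no replicates. The median of the same difference over rows above background was -0.21.

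**Figure D2:**
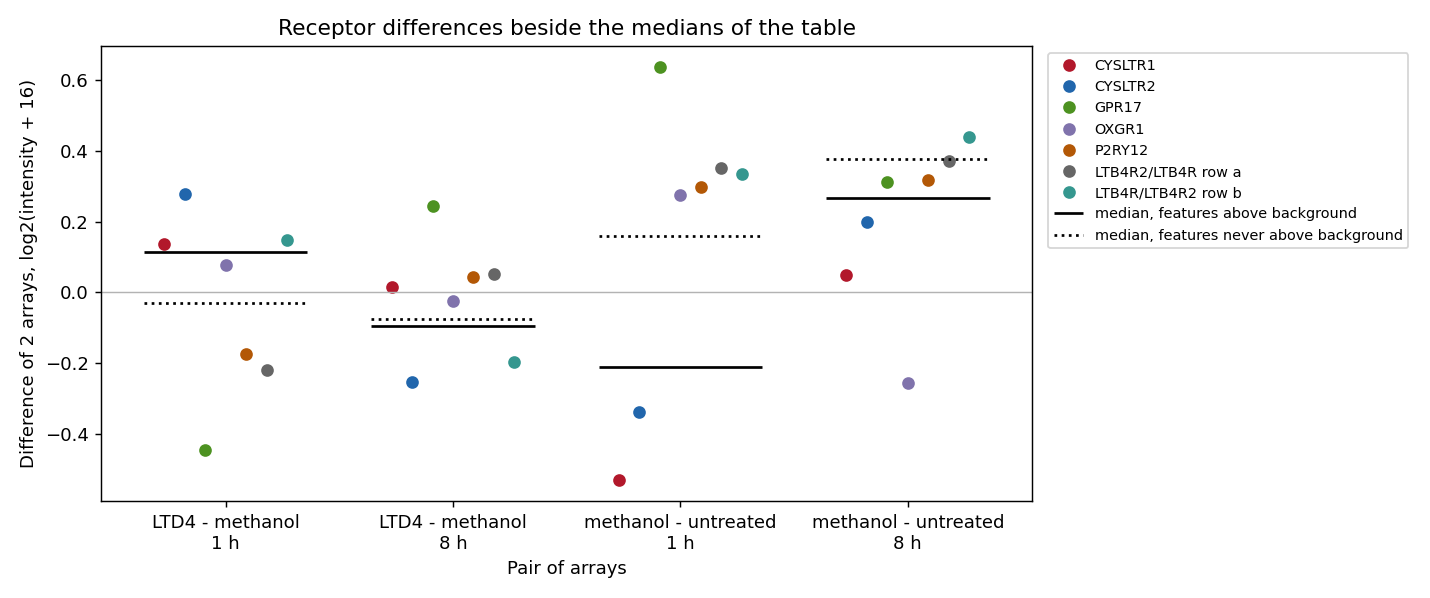
Differences between pairs of single arrays on the log2(intensity + 16) scale for the 7 receptor rows, 1 point per row and pair, beside the medians of 3584 rows above background on at least 1 array (solid) and of 15023 rows never above it (dotted). CYSLTR1 stands at -0.53 for methanol minus untreated at 1 h, below the solid line at -0.21, and lies within 0.14 of 0 in the other 3 pairs.

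The vehicle comparison set methanol against untreated cells. With methanol at 1 h CYSLTR1 was 0.53 below the untreated array and CYSLTR2 0.34 below, while at 8 h they were 0.05 and 0.20 above. The medians of rows above background were -0.21 at 1 h and 0.27 at 8 h. Each receptor thus lay below the shift of bright rows at both times, by the widest margin in CYSLTR1 at 1 h. The dim rows stood higher with methanol as deposited, except OXGR1 at 8 h, and over both times P2RY12 (-0.0093) and the row that lists LTB4R2 first (-0.025) turned sign under quantile normalization. GPR17 was 0.64 above untreated at 1 h and 0.31 at 8 h, P2RY12 was 0.30 and 0.32 above, the row that lists LTB4R2 first 0.35 and 0.37, and the row that lists LTB4R first 0.34 and 0.44. OXGR1 was 0.27 above at 1 h and 0.26 below at 8 h. Rows never above background had medians of 0.16 at 1 h and 0.38 at 8 h, and 6464 rows with a mean intensity of 75 to 300, the range of GPR17 and of both shared rows, had medians of 0.28 and 0.42.

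GPR17 at 1 h was the 1 of 7 receptor rows at least 1.5-fold above untreated, a rule that 10.4% of all rows passed at 1 h. At 8 h 0 of 7 passed it, against 22.7% of all rows. At 2-fold 0 of 7 were above untreated at either time, where 1.82% of all rows were at 1 h and 3.76% at 8 h, and 0 of 7 were below, where 0.204% and 0.043% were. None was 1.5-fold below untreated, which held for 3.61% of rows at 1 h and 0.269% at 8 h. Over both times limma called 0 of 7 receptor rows for methanol against untreated, with 9.88% of all rows called, 1801 higher and 37 lower, a split that became 662 and 2078 after centring each array on its median over all rows, 1946 and 438 after centring on rows above background and 420 and 410 after quantile normalization. At an unadjusted p under 0.05 it was 1 of 7, GPR17, where 4528 of all 18607 rows passed. CYSLTR1 differed by -0.24 (SE 0.26, interval -0.74 to 0.26, adjusted p = 0.601) and CYSLTR2 by -0.07 (SE 0.21, interval -0.48 to 0.34, adjusted p = 0.877). GPR17 differed by 0.48 (SE 0.20, adjusted p = 0.109), higher at both times. Markers of other cells stood higher with methanol too: the summed intensity of 8 T and NK cell markers was 1004 and 675 untreated at 1 h and 8 h and 1231 and 1030.1 with methanol, and that of 8 myeloid and mast cell markers 803.5 and 589.7 against 1202 and 853. As higher with methanol limma called 2 of the 8 T and NK cell markers, CD3D and CD3E, and 2 of the 8 myeloid and mast cell markers, CD14 and PRG2. Of all rows 9.88% were called, and the marker calls are given on the values as deposited only. Each marker lay below the background limit on every array, and their part in the receptor values was not tested.

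This result depended on how the arrays were scaled. The median of all rows was 0.22 higher with methanol than in untreated cells, and that of rows above background 0.03. When each array was centred on its median over all rows, CYSLTR1 fell by 0.53 (adjusted p = 0.00348) and CYSLTR2 fell by 0.36 (adjusted p = 0.0349), each lower at both times. That centring called 2 of 7 receptor rows and 2740 of all 18607 rows, 2078 of the latter lower. Centring on rows above background was an alternative chosen after seeing the data. With it CYSLTR1 stood at -0.28 (adjusted p = 0.122) and CYSLTR2 at -0.11 (adjusted p = 0.586). It called 0 of 7 receptor rows and 2384 of all rows. Quantile normalization gave -0.31 (adjusted p = 0.156) and -0.07 (adjusted p = 0.789). CYSLTR1 was lower with methanol under each of these scalings, over both times. Without the untreated array of 1 h its difference was 0.02, and without that of 8 h -0.50, with no call in either case.

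For LTD4 against untreated cells, which shares the untreated arrays with the vehicle comparison, 0 of 7 rows were called, with 5.28% of all rows called. At an unadjusted p under 0.05 it was also 0 of 7, where 3381 of all 18607 rows passed. CYSLTR1 differed by -0.17 (SE 0.26, adjusted p = 0.782), CYSLTR2 by -0.06 (SE 0.21, adjusted p = 0.914) and GPR17 by 0.37 (SE 0.20, adjusted p = 0.306). Centring on all rows gave -0.38 for CYSLTR1 (adjusted p = 0.061 by limma) and -0.27 for CYSLTR2 (adjusted p = 0.157). Both then had an unadjusted p under 0.05, as did 4204 of all 18607 rows, and neither was called. Quantile normalization gave -0.22 and -0.08, with neither under 0.05.

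**Figure D3:**
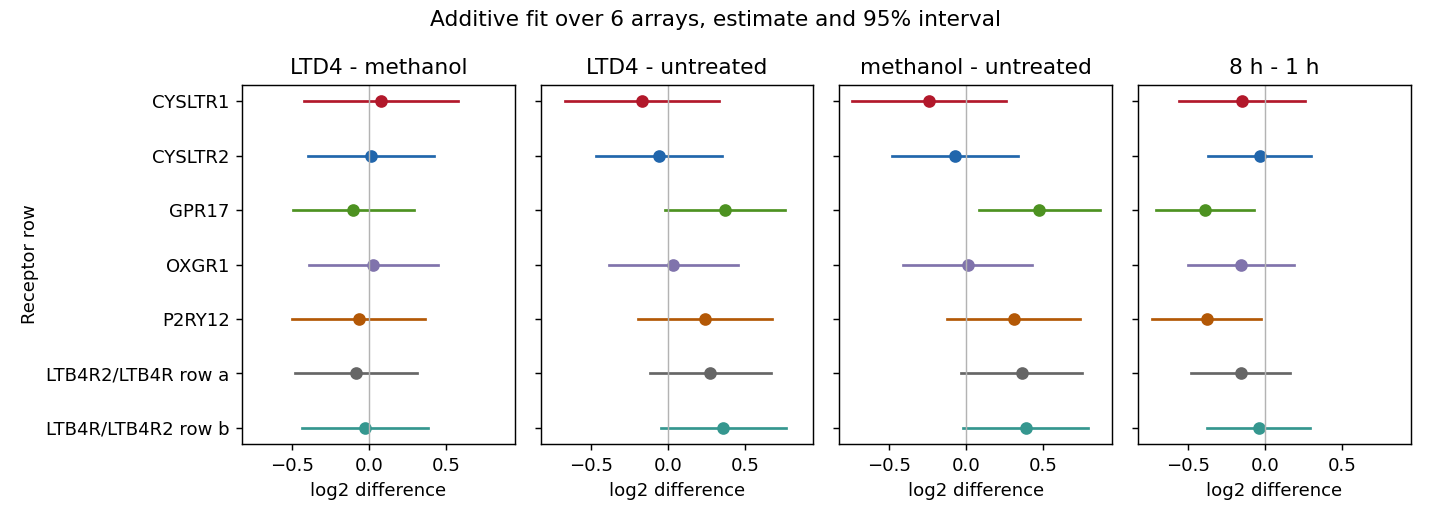
Estimates (points) and 95% intervals (lines) of the limma additive fit over 6 arrays for the 7 receptor rows in 4 comparisons, as log2 differences. Row a lists LTB4R2 first and row b LTB4R first. Intervals of CYSLTR1 and CYSLTR2 include 0 in all 4, those of GPR17 in 2 comparisons and of P2RY12 in 1 exclude 0 before adjustment, and no row passed the adjusted threshold of 0.05.

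With time in culture, 8 h against 1 h over the 3 agents, 0 of 7 receptor rows were called, with 1.86% of all rows called. At an unadjusted p under 0.05 it was 2 of 7, GPR17 and P2RY12, where 2492 of all 18607 rows passed. The rows at this threshold changed with the scaling. They were CYSLTR1 (-0.22) after quantile normalization, CYSLTR1 (-0.23) and GPR17 after centring on rows above background, and GPR17 after centring on all rows. Of all rows 2922, 4173 and 3915 passed in the same order. As deposited, CYSLTR1 differed by -0.15 (SE 0.21, adjusted p = 0.806). Its difference between times came from the untreated arrays, at -0.49, while those with methanol and LTD4 differed by 0.09 and -0.03. CYSLTR2 differed by -0.03 (SE 0.17, adjusted p = 0.955), at -0.21 untreated, 0.32 with methanol and -0.21 with LTD4. GPR17 differed by -0.39 (SE 0.16, adjusted p = 0.237) and P2RY12 by -0.38 (SE 0.18, adjusted p = 0.329), each lower at 8 h with 3 of 3 agents. For rows with a mean intensity of 75 to 300 the median was -0.17, and for those of 25 to 75, the range of P2RY12 and OXGR1, it was -0.21.

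Set among other GPCRs, the 2 cysteinyl leukotriene receptors belonged to the few detected on every array. Of 361 listed GPCRs without olfactory receptors, 345 had a row of their own, and 6 of them, or 1.74%, were above background on all 6 arrays. Beside CYSLTR1 and CYSLTR2 these were PTGER4, a receptor of prostaglandin E2, and the chemokine receptors CCR4, CCR7 and CXCR4, which bind CCL17 and CCL22, CCL19 and CCL21, and CXCL12. PTGER4 ranged from 1825 to 3065, CCR4 from 2555 to 4327, CCR7 from 7595 to 9228 and CXCR4 from 1933 to 2601. A further 13 passed on some arrays and 326 on none. Of 37 other receptors with a row that were listed here as purinergic-like, 0 were above background on all arrays. In that list 1, the protease-activated receptor F2RL1, was above it on 1 array. With the 95th percentile taken on each array 7 GPCR rows passed on all arrays, with the 75th percentile over all arrays, 654, it was 18, and with the highest control probeset 5. The receptor rows below background did not pass on any array under any of these limits.

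As deposited, all 6 of these GPCR rows were highest on the untreated and lowest on the methanol array of 1 h, an order found in 359 of 2119 rows above background on all arrays, or 16.9%. The order changed with the scaling. After centring on rows above background 2 of 6 were highest on the untreated array of 1 h and 1 of 6 lowest on methanol at 1 h, after quantile normalization 3 and 1, and after centring on all rows 2 and 5. Under that centring, centring on all rows and quantile normalization, CYSLTR1 stayed highest on the untreated array of 1 h, at 0.33, 0.44 and 0.33 above its mean, and its lowest array became methanol at 8 h. CYSLTR2 was then highest on LTD4 at 1 h, untreated at 8 h and LTD4 at 1 h, so its order was not stable. Over the 6 arrays CYSLTR1 spanned 0.53 log2 units and CYSLTR2 0.34. The median span was 0.48 for the 6 GPCR rows and also 0.48 for the 2119 rows, of which 16.6% spanned less than CYSLTR2 and 63.7% less than CYSLTR1.

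**Figure D4:**
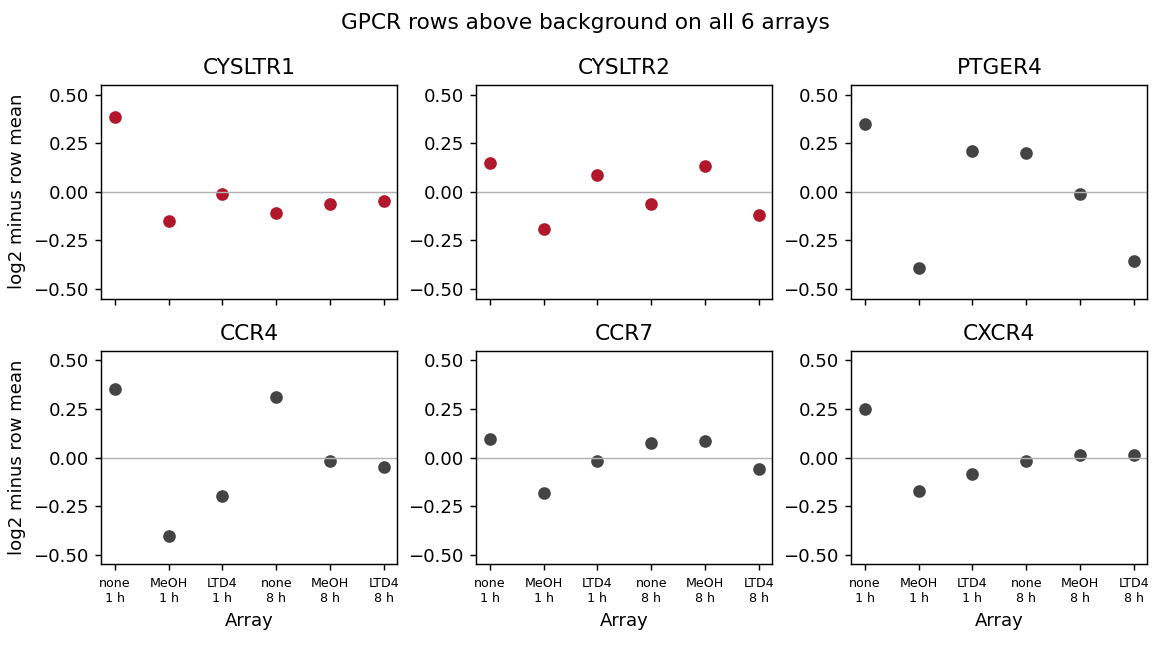
Log2(intensity + 16) minus the row's mean over 6 arrays (vertical axis) on each array (horizontal axis; none, untreated; MeOH, methanol) for the 6 GPCR rows above background on all arrays, with 1 point per array as deposited. The untreated array of 1 h is the highest and the methanol array of 1 h the lowest in each panel, an order that other scalings change.

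By Pearson correlation over the 6 arrays, the GPCR rows most like CYSLTR1 among 18 others above background on at least 1 array were CXCR4 (r = 0.90, Spearman's rho = 0.60), CYSLTR2 (0.64 and 0.71) and PTGER4 (0.61 and 0.77). Those most like CYSLTR2 were CCR7 (0.78 and 0.94), PTGER4 (0.77 and 0.83) and CYSLTR1 (0.64 and 0.71). These values describe 6 arrays that share array-wide shifts. With each array centred on rows above background, r was 0.91 for CYSLTR1 with CXCR4, 0.60 with CYSLTR2 and 0.65 with PTGER4, and for CYSLTR2 0.70 with CCR7 and 0.92 with PTGER4. The untreated and methanol arrays of 1 h were the 2 farthest from the median. Without them, on the values as deposited, r of CYSLTR1 was -0.50 with CXCR4, 0.38 with CYSLTR2 and -0.15 with PTGER4. That of CYSLTR2 was 0.43 with CCR7 and 0.48 with PTGER4. Each r was thus lower, and the likeness of CYSLTR1 to CXCR4 and to PTGER4 rested on those arrays.

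The receptors sit between the enzymes that make leukotrienes and the G proteins that carry the signal. Of 20 genes of leukotriene and lipoxygenase metabolism with a row, 3 were above background on all arrays: PLA2G4A, the phospholipase that frees arachidonic acid, at 1310 to 2382, MGST3, a microsomal glutathione transferase that can make leukotriene C4, at 8014 to 9854, and the lipoxygenase ALOX15 at 5664 to 9721. LTA4H, which makes leukotriene B4, passed on 4 arrays. ALOX5 lay at 94.5 to 202, below the limit, as did LTC4S, leukotriene C4 synthase, at 110 to 194. LTD4 against methanol changed 0 of 20, with a median of -0.09 where all rows had -0.04, and 8 h against 1 h 0 of 20. Methanol against untreated raised 2, the leukotriene-cleaving GGT5 (0.80, adjusted p = 0.00204) and DPEP1 (0.69, adjusted p = 0.0153), both below background, and lowered 1, ALOX15, which fell by 0.48 (adjusted p = 0.0448). The median of the 20 was 0.32. Over all rows 9.88% were called for methanol against untreated, 0.0215% for LTD4 against methanol and 1.86% for time. The methanol split over all rows, 1801 higher and 37 lower, became 420 and 410 after quantile normalization. The calls of single pathway genes are given on the values as deposited only.

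Of 26 genes that couple such receptors, 4 were above background on all arrays, the G protein subunits GNAQ at 3252 to 5015, GNAI2 at 2512 to 3371, GNAI3 at 1640 to 2095 and GNA12 at 2210 to 2966. GNAQ encodes the subunit that activates phospholipase C beta. LTD4 against methanol and 8 h against 1 h changed 0 of 26, with medians of -0.05 and -0.02, where 0.0215% and 1.86% of all rows were called. Methanol raised 1 of 26, PLCB2, a phospholipase C that lay below background at 146 to 381, by 0.94 (adjusted p = 0.000871), with a median of 0.02 over the list. Over all rows 9.88% were called for methanol against untreated, and the PLCB2 call is given on the values as deposited only. Among the 345 GPCR rows LTD4 against methanol raised 1, the sphingosine 1-phosphate receptor S1PR1, and lowered 0, with a median of -0.05. That is 0.29% called, where 0.0215% of all rows were. S1PR1 rose by 0.89 (SE 0.20, adjusted p = 0.0444) but lay below background at 55.7 to 185. At 1 h its LTD4 array read 185, against 55.7 with methanol and 84.9 untreated, and it was the 1 GPCR row past 1.5-fold above both references at either time, with 0 below. The S1PR1 call was lost with an offset of 1 (adjusted p = 0.0522), without the intensity trend (adjusted p = 0.139), after quantile normalization or centring on rows above background (adjusted p = 1.00 in each), and when either the LTD4 array of 1 h (0.45) or its methanol array (0.42) was left out. Methanol against untreated raised 42 of 345 GPCR rows and lowered 0, with a median of 0.29. That is 12.2% called, where 9.88% of all rows were, and the split became 20 and 16 after centring on all rows, 31 and 3 after centring on rows above background and 12 and 6 after quantile normalization. The estimates with the greatest size were those of the melanocortin receptor MC4R (2.05), the Wnt receptor FZD1 (1.46), the chemokine receptor CCR10 (1.43), MRGPRD (1.39) and the bombesin-like receptor BRS3 (1.38), with adjusted p from 1.37e-20 to 4.17e-06 by limma. MC4R, MRGPRD and BRS3 were above background on no array and FZD1 and CCR10 on 1 each, so these estimates come from rows mostly within the control range. LTD4 against untreated, which shares the untreated arrays, raised 27 and lowered 0, and gave 1.46, 1.27, 1.29, 1.14 and 1.44 for the same rows in that order. The 27 rows are 7.83% of the GPCR rows, where 5.28% of all rows were called. Their split became 14 and 8 after centring on all rows, 23 and 4 after centring on rows above background and 7 and 4 after quantile normalization. At 8 h against 1 h 1 GPCR row rose, GPR15 (1.34), and 12 fell, led by MC4R (-0.85), ADGRL2 (-0.81), CCR10 (-0.78), MTNR1A (-0.74) and MRGPRD (-0.69). Of these, GPR15 was above background on 3 arrays, CCR10 and MTNR1A on 1 each and the other 3 on none. Over all rows the time comparison called 38 higher and 308 lower, which became 676 and 536 after centring on all rows, 271 and 915 after centring on rows above background and 139 and 172 after quantile normalization. The GPCR counts were then 1 and 19, 1 and 26, and 1 and 7.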

How the data were processed

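The authors deposited gene-level intensities on a linear scale for 33297 probesets on 6 arrays. RMA and Affymetrix Expression Console are named, per the submitters' processing notes, while the table's name carries PLIER, so which method made the values stays unknown. A second deposited table held the same intensity in all 199782 values, within 1e-06. Rows naming 1 symbol were used, the brightest for each symbol, which left 18605 genes, joined by the 2 shared LTB4R and LTB4R2 rows. Analysis used log2(intensity + 16), which understates changes of dim rows. The additive model (agent plus time, 2 residual degrees of freedom) was fitted to all rows with limma 3.58.1 in R 4.3.3. It used eBayes with an intensity trend and Benjamini-Hochberg adjustment. The model was also run on simulated data with independent noise for each row and array. Those data had no array-wide shifts, so they do not test the p-values against such shifts. In the fit as reported, eBayes estimated infinite prior degrees of freedom. Each row's SE, interval and p-value thus came from the intensity trend pooled over all rows, and the row's own spread carried no weight. P-values rest on this pooled spread between single arrays, which may be technical, and the number of arrays limits the precision.

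Receptors, gene lists and tests were chosen with earlier results of these data known. Named genes were the receptors, the 3 detected GPCR rows most correlated with CYSLTR1 and with CYSLTR2, GPCR rows past a rule or threshold (at most 5 a direction), called or brightest members of the pathway lists, EGR1 and up to 4 markers a list, beside defining markers below background and called markers of other cells, chosen after their values were seen. Alternatives were other offsets, filters, scalings and limits, eBayes without trend and leaving out each array. All 7 symbols matched RefSeq promoters.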

Additional observations from a re-analysis of the deposited data

Results flagged for a closer look

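For the 2 receptors above background, 3 effects had opposite signs at the 2 times, each from single arrays, so these differences were not tested. The methanol effect on CYSLTR1 (methanol minus untreated, log2) was -0.53 at 1 h and 0.05 at 8 h, a difference of 0.58. That on CYSLTR2 was -0.34 and 0.20, a difference of 0.54. The LTD4 effect on CYSLTR2 (LTD4 minus methanol) was 0.28 at 1 h and -0.25 at 8 h, a difference of -0.53. Other scalings changed the signs of the methanol effects. That on CYSLTR1 was -0.33 at 1 h and -0.23 at 8 h after centring on rows above background, -0.64 and -0.41 after centring on all rows and -0.35 and -0.26 after quantile normalization. That on CYSLTR2 was -0.13 and -0.081, -0.45 and -0.26, and -0.15 and 0.018 in the same order. The LTD4 effect on CYSLTR2 kept opposite signs, at 0.16 and -0.16, 0.29 and -0.13, and 0.16 and -0.18. As deposited, rows above background had medians of 0.50 for the methanol difference and -0.21 for the LTD4 difference, and the part of these array-wide shifts in the receptor values was not tested.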

How the results depend on the processing

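No paired analysis was possible because each group had 1 array, so no replicate number pairs samples; time was a term of the model in every fit. The count of 0 receptor rows called held in the 4 fits under both offsets, quantile normalization, centring on rows above background, eBayes without trend, the second table and without each array, and with centring on all rows in 3 of them. In the vehicle fit that centring called 2, CYSLTR1 at -0.53 and CYSLTR2 at -0.36, among 2740 of all 18607 rows. Both filters removed the 5 dim receptor rows, so there 0 of 2 were called. A limit at the highest control probeset left 1 receptor, CYSLTR2, above background on all 6 arrays. Some differences changed sign, none of them called. With quantile normalization LTD4 minus methanol was -0.013 for CYSLTR2 and 0.058 for the row that lists LTB4R first, and 8 h minus 1 h was 0.037 for OXGR1, 0.00399 for the row that lists LTB4R2 first and 0.071 for the row that lists LTB4R first. Methanol minus untreated was then -0.35 for OXGR1, -0.0093 for P2RY12 and -0.025 for the row that lists LTB4R2 first, and LTD4 minus untreated -0.28, -0.022 and -0.047 in the same order. Centring on all rows gave 0.0052 for P2RY12 and 0.046 for the row that lists LTB4R first in LTD4 minus methanol, and for OXGR1 -0.28 in methanol minus untreated and -0.18 in LTD4 minus untreated. Centring on rows above background gave -0.028 and -0.011 for these 2. The cause was not tested. Each receptor symbol had no other row of its own, so another row could not be tried, and the 1.5-fold rules and methanol as sole reference stand with the results.

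Leaving out 1 array at a time, LTD4 minus methanol ranged from -0.10 to 0.25 for CYSLTR1, -0.26 to 0.28 for CYSLTR2, -0.36 to 0.16 for GPR17, -0.16 to 0.21 for OXGR1, -0.18 to 0.048 for P2RY12, -0.22 to 0.056 for the row that lists LTB4R2 first and -0.17 to 0.12 for the row that lists LTB4R first. Methanol minus untreated ranged from -0.50 to 0.018 for CYSLTR1, -0.34 to 0.20 for CYSLTR2 and -0.28 to 0.30 for OXGR1. LTD4 minus untreated ranged from -0.43 to 0.093, -0.20 to 0.078 and -0.26 to 0.33 in the same order. Time ranged from -0.26 to 0.027 for CYSLTR1, -0.21 to 0.059 for CYSLTR2 and -0.11 to 0.058 for the row that lists LTB4R first.

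Counts over the whole table moved more: other settings called 52 to 2740 rows for methanol against untreated, 39 to 2054 for LTD4 against untreated, 7 to 1212 for time and 0 to 13 for LTD4 against methanol, where the analysis as reported called 1838, 983, 346 and 4. Leaving out 1 array gave 520 to 2786, 68 to 1871, 87 to 472 and 0 to 24. The vehicle split of 1801 higher and 37 lower became 662 and 2078 after centring on all rows, 1946 and 438 after centring on rows above background, and 420 and 410 after quantile normalization. In the 5 dim receptor rows, with 1 array per group and intensities within the control range, limma called no change. Some rows as dim were called, such as GGT5 at 60.5 to 187 for methanol against untreated. Whether RNA changes could be read at such intensities was not tested.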
